A study of Mus musculus with 16 samples.

Results

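The genes described here are those that carry a cell through G1 into S phase: the D-type cyclins Ccnd1, Ccnd2 and Ccnd3, the E-type cyclins Ccne1 and Ccne2, the kinases Cdk2, Cdk4 and Cdk6, the kinase inhibitor Cdkn1b (p27) and the transcription factor E2f1. They were taken by gene symbol, as every array probe that the platform annotation assigns to one of these 10 genes. Of the 10 genes, 9 have a probe among the 16593 genes with a symbol on the array, and 18 of 25697 probes carry their names. Cdk4 has no probe under its symbol and was not analysed here. A filter on detection left 15 of the 18 probes, covering 8 genes, among the 13377 probes and 9107 genes tested. The 3 probes that did not pass are the single Cdk6 probe and 2 of the 3 Cdkn1b probes.

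RNA came from mouse embryonic stem (ES) cells, pluripotent cells grown here on gelatin in medium with serum and the cytokine LIF, and was hybridised to Illumina bead arrays. Untreated wild-type CCE cells, a mouse ES cell line, were compared with CCE cells given NaClO3- (chlorate) at 20 mM for 24 h, which blocks the sulfation of heparan sulfate. The third group was CCE cells given SU5402, an inhibitor of FGF receptor kinases, at 5 µM for 24 h. The fourth was Ndst1/2-/- ES cells without inhibitor, which lack Ndst1 and Ndst2, enzymes that start the sulfation of heparan sulfate. Each group had 3 cultures on 4 arrays, because the third culture was measured on 2 arrays, and the 2 were averaged. The labels do not say whether the Ndst1/2-/- cells derive from CCE or were 1 clone, so a difference between lines and an effect of the genotype cannot be told apart. Ndst1 and Ndst2 themselves were not analysed here.

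Between 12022 and 12821 probes were detected per array. The arrays formed a brighter set A and a dimmer set B, with mean intensity of 411.99 to 454.07 and 369.29 to 399.82, and each set holds the same number of arrays of every group. All 6 pluripotency markers checked (Pou5f1, Nanog, Sox2, Zfp42, Utf1 and Dppa5a) were detected on every array, with a summed level of 53297 to 54239 in untreated cultures and 55282 to 60648 in the others. Of 7 fibroblast markers, 5 were detected on no array of any group, Col1a2, Col3a1, Dcn, Lum and Postn, and all 7 on none in Ndst1/2-/- cells. Thy1 was detected on every wild-type array, at a mean log2 level of 6.50 in untreated, 5.91 in chlorate and 5.76 in SU5402 cultures. Col1a1 was detected on 2, 3 and 2 of 4 arrays of these groups. The summed fibroblast markers were at 226.78 to 243.13 in untreated and 195.87 to 205.53 in chlorate cultures. They were at 187.95 to 207.65 in SU5402 and 146.76 to 154.09 in Ndst1/2-/- cultures. The summed trophectoderm markers (Cdx2, Eomes, Elf5, Krt7 and Gata3) moved with the groups, at 217.69 to 232.37 in untreated, 343.12 to 378.98 in chlorate, 334.47 to 338.61 in SU5402 and 196.34 to 213.47 in Ndst1/2-/- cultures. Gata3 among them had a mean log2 level of 6.01, 7.54, 7.31 and 6.50 in the same order. Elf5 was detected on no array of any group, and Cdx2 and Krt7 on every wild-type array and on none of Ndst1/2-/- cells. The summed primitive endoderm markers (Gata4, Gata6, Sox17, Sox7, Foxa2 and Pdgfra) were at 200.65 to 215.68 in untreated, 185.91 to 191.32 in chlorate, 178.29 to 201.41 in SU5402 and 177.74 to 186.67 in Ndst1/2-/- cultures. Sox17 and Foxa2 were detected on no array, and Gata6 on every wild-type array and on none of Ndst1/2-/- cells. Sox7, by probe ILMN_2889482, had a mean log2 level of 5.31, 5.06, 5.06 and 6.04 in the same order. Of the neuroectoderm markers, Sox1 and Pax6 were detected on no array, and the sum of the 4 on the array (Sox1, Pax6, Nes and Neurod1) was 289.42 to 369.99 in wild-type and 264.87 to 272.09 in Ndst1/2-/- cultures. The part of these markers in the results below was not tested.

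In G1, mitogen signals raise the D-type cyclins, which activate CDK4 and CDK6 to phosphorylate the retinoblastoma protein and so release E2F factors. E2F factors drive transcription of S-phase genes, and of E-type cyclins that bind CDK2 and complete the switch. p27 binds and inhibits cyclin E-CDK2. Mouse ES cells are known for a short G1 phase with high CDK2 activity and little p27, so that this switch is set unlike that of most somatic cells. FGF receptors use sulfated heparan sulfate as a co-receptor and signal through ERK, a pathway that raises D-type cyclins in many cell types.

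Promoter sequences of 7 of the 10 genes were found in RefSeq (GRCm38.p6), as 250 bases before and 50 after a transcript start. Those of Cdk2, Ccne1 and Cdkn1b are shown because the results turn on the different course of these genes, which encode the kinase, its partner and its inhibitor. They lie at chr10:128705002-128705301 (minus strand), chr7:38107441-38107740 (minus strand) and chr6:134920151-134920450 (plus strand). Capitals mark matches on either strand to an E2F site (TTTCCCGC or TTTGGCGC), a GC box (GGGCGG) or a CCAAT box (CCAAT), and none of the matches overlap one another.
Cdk2: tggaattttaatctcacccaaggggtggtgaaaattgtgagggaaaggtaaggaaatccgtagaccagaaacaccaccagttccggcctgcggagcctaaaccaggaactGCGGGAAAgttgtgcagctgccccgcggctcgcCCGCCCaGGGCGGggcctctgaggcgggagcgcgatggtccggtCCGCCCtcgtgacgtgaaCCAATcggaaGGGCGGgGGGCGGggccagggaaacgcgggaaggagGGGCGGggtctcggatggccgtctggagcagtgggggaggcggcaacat
Ccne1: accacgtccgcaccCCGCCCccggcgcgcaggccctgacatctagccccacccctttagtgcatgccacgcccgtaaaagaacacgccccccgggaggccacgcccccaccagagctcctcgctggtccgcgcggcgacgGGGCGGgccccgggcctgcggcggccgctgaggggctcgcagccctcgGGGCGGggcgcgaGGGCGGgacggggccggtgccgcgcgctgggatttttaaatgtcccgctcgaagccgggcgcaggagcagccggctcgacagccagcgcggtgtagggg
Cdkn1b: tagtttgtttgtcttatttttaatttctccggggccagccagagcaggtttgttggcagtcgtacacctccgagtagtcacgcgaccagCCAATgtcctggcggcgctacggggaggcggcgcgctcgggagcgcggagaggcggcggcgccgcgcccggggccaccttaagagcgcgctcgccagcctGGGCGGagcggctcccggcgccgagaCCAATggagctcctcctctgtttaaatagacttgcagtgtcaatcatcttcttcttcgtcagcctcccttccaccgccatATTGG
The Cdk2 window holds 1 match to TTTCCCGC, 6 GC boxes and 1 CCAAT box. The Ccne1 window holds 4 GC boxes and no exact match to either E2F motif, and the Cdkn1b window holds 1 GC box and 3 CCAAT boxes. Near matches were not searched. Of 32851 RefSeq mouse promoters of the same length, 1.07% hold TTTCCCGC, 0.514% TTTGGCGC, 35.7% a GC box and 37.4% a CCAAT box. A match is a description of the letters and not a bound site.

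Against untreated wild-type cells, both inhibitor groups and the Ndst1/2-/- cells differed in these genes, in part in the same direction and in part in opposite directions. At the brightest tested probe, Cdk2 and E2f1 were called higher and Ccne1 lower in all 3 other groups. With each inhibitor 1 of 4 Cdk2 probes was called, and scaling arrays to a common median left Cdk2 and E2f1 uncalled. Ccnd1 and Ccnd2 fell with either inhibitor and were higher in Ndst1/2-/- cells. Ccnd3 was called only in the Ndst1/2-/- comparison, where it was higher. The Cdkn1b probe rose with chlorate and was not detected in Ndst1/2-/- cells. Every probe was tested with a linear model of the 4 groups in limma, with Benjamini-Hochberg adjustment over all probes, and called at an adjusted p under 0.05. All levels below are normalised log2 intensities of the brightest tested probe of each gene, given in the order of culture 1, 2 and 3. Since each culture is a bulk sample, fewer cells of a type or cycle phase and less RNA per cell cannot be told apart.

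**Figure D1:**
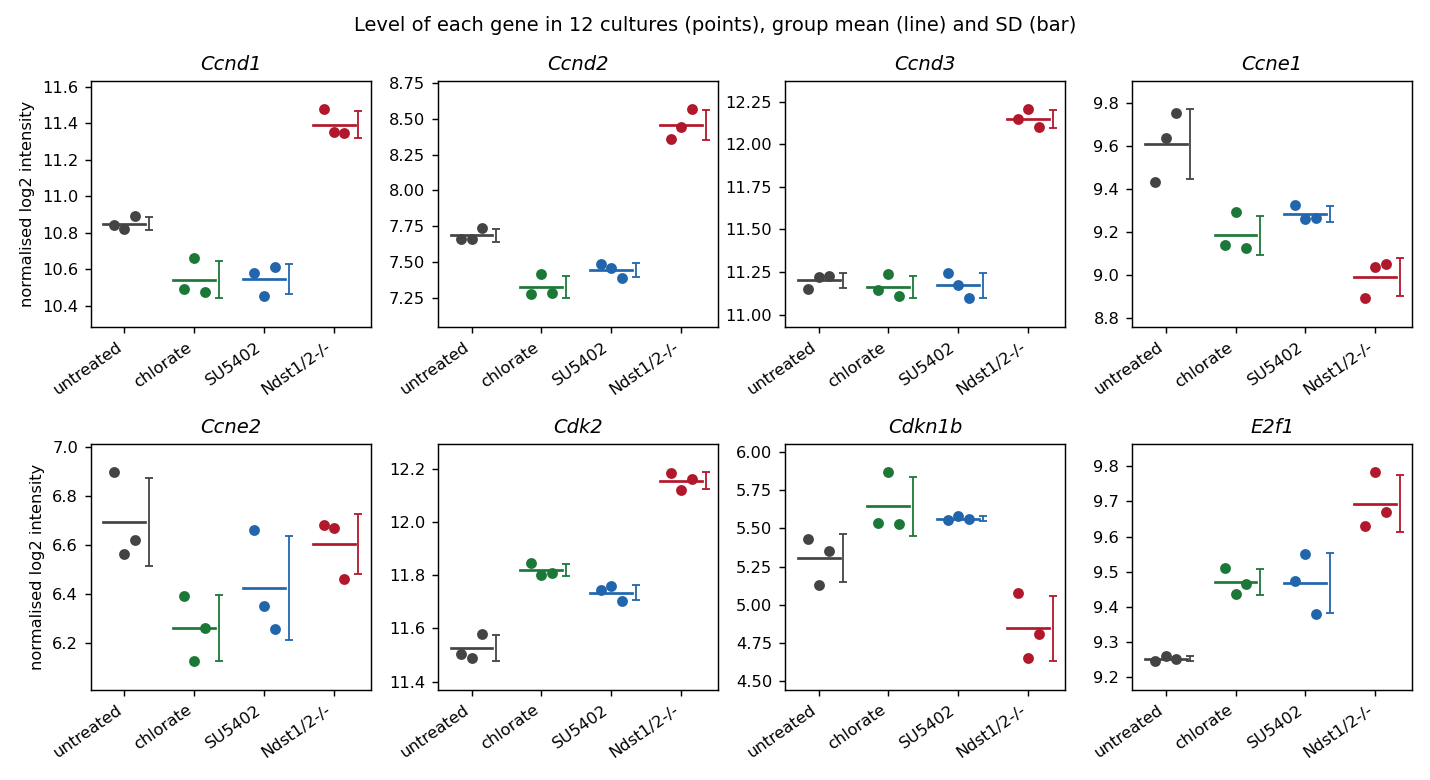
Normalised log2 intensity of the 8 genes in 12 cultures, one panel per gene with its own axis. Points are cultures, lines are group means and bars are SD (n = 3). The Ndst1/2-/- cultures lie above all others for Ccnd1, Ccnd2, Ccnd3, Cdk2 and E2f1 and below all others for Ccne1 and Cdkn1b. The Cdkn1b probe was not detected in Ndst1/2-/- cells and passed the filter through the wild-type groups. Of all probes, 62.7% were called between Ndst1/2-/- and untreated cells, and the share that separate without overlap was not computed.

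Ccnd1 encodes cyclin D1, a partner of CDK4 and CDK6. Its level was 10.84, 10.82 and 10.89 in untreated cultures, 10.49, 10.66 and 10.48 with chlorate, and 10.58, 10.46 and 10.61 with SU5402. In Ndst1/2-/- cultures it was 11.48, 11.35 and 11.35. The Ndst1/2-/- cultures were highest, the untreated ones next, and both inhibitor groups lowest, with overlap between the inhibitor groups alone. Chlorate lowered Ccnd1 1.24-fold (log2 difference -0.31 ± 0.07 SE, limma adjusted p = 0.00502) and SU5402 1.23-fold (-0.30 ± 0.07, adjusted p = 0.00714), whereas Ndst1/2-/- cells were 1.45-fold higher (0.54 ± 0.07, adjusted p = 1.74e-05). The 2 other Ccnd1 probes were called in the same direction in each of these comparisons. Over the 3 probes the log2 difference spanned -0.45 to -0.31 with chlorate, -0.30 to -0.26 with SU5402 and 0.52 to 0.56 in Ndst1/2-/- cells. Within array sets A and B the brightest probe differed by -0.40 and -0.27 with chlorate, by -0.30 and -0.29 with SU5402, and by 0.49 and 0.55 in Ndst1/2-/- cells. Its SU5402 call was lost in set A alone (adjusted p = 0.07) and set B alone (0.0995), and its chlorate call in set B alone (0.107).

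Ccnd2, encoding cyclin D2, had the same order of groups. It stood at 7.66, 7.66 and 7.74 in untreated cultures and at 8.36, 8.44 and 8.57 in Ndst1/2-/- cultures. With chlorate the values were 7.27, 7.42 and 7.28, and with SU5402 they were 7.49, 7.46 and 7.39. Neither inhibitor group overlapped the untreated cultures, while the inhibitor groups overlapped each other. The fall was 1.29-fold with chlorate (-0.36 ± 0.07, limma adjusted p = 0.00146) and 1.18-fold with SU5402 (-0.24 ± 0.07, adjusted p = 0.02), and Ndst1/2-/- cells were 1.70-fold higher (0.77 ± 0.07, adjusted p = 5.3e-07). The SU5402 call for Ccnd2 depends on single cultures, with an adjusted p of 0.0736 without untreated culture 3 and 0.0727 without SU5402 culture 3. Within sets A and B its log2 difference was -0.39 and -0.38 with chlorate, -0.20 and -0.34 with SU5402, and 0.75 and 0.82 in Ndst1/2-/- cells. The SU5402 call was lost in set A alone (adjusted p = 0.172) and in set B alone (0.0839).

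Ccnd3, encoding cyclin D3, parted from the other D-type cyclins. Its level was 11.15, 11.22 and 11.23 in untreated cultures, 11.14, 11.24 and 11.11 with chlorate, and 11.24, 11.18 and 11.09 with SU5402. The 3 wild-type groups thus overlapped throughout, and Ndst1/2-/- cultures stood apart at 12.15, 12.20 and 12.10. Ndst1/2-/- cells were 1.93-fold higher than untreated cells (0.95 ± 0.06, limma adjusted p = 3.12e-08). The inhibitors gave differences of -0.04 (95% interval -0.17 to 0.09, adjusted p = 0.685) and -0.03 (-0.16 to 0.10, adjusted p = 0.776). All 3 Ccnd3 probes were called higher in Ndst1/2-/- cells, from 0.67 to 0.95, and none was called with either inhibitor. One of them, ILMN_1246473, lay lower in all SU5402 cultures than in any untreated culture without passing the test (-0.22 ± 0.09, adjusted p = 0.0987). With array set as a block over 16 arrays, a fit that counts the 2 arrays of culture 3 separately, that probe passed it at an adjusted p of 0.0325.

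Ccne1, which encodes the CDK2 partner cyclin E1, was the one cyclin below the untreated level in every other group by this test. Its level was 9.43, 9.64 and 9.75 in untreated cultures, 9.14, 9.29 and 9.12 with chlorate, 9.32, 9.26 and 9.26 with SU5402, and 8.89, 9.03 and 9.05 in Ndst1/2-/- cultures. Untreated cultures were highest and Ndst1/2-/- cultures lowest, with the inhibitor groups between them and overlapping each other. The fall was 1.34-fold with chlorate (-0.42 ± 0.08, limma adjusted p = 0.00215), 1.25-fold with SU5402 (-0.33 ± 0.08, adjusted p = 0.0132) and 1.53-fold in Ndst1/2-/- cells (-0.62 ± 0.08, adjusted p = 2.87e-05). Without untreated culture 3 the SU5402 call for Ccne1 was lost, at an adjusted p of 0.0584. Within sets A and B the difference was -0.50 and -0.45 with chlorate, -0.27 and -0.47 with SU5402, and -0.66 and -0.62 in Ndst1/2-/- cells. The SU5402 call was also lost in set A alone (adjusted p = 0.137).

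Ccne2, encoding cyclin E2, had a dim probe and a wide spread between cultures. It stood at 6.90, 6.56 and 6.62 in untreated cultures, 6.39, 6.13 and 6.26 with chlorate, 6.66, 6.35 and 6.26 with SU5402, and 6.68, 6.67 and 6.46 in Ndst1/2-/- cultures. Chlorate cultures alone lay wholly below the untreated ones. The chlorate difference was 1.35-fold lower (-0.43 ± 0.12, limma adjusted p = 0.0156). It was lost without untreated culture 1 (adjusted p = 0.0661) or chlorate culture 2 (adjusted p = 0.0639). Ccne2 differed by -0.27 with SU5402 (95% interval -0.52 to -0.01, adjusted p = 0.123) and by -0.09 in Ndst1/2-/- cells (-0.35 to 0.17, adjusted p = 0.534). The SU5402 difference passed without SU5402 culture 1 (adjusted p = 0.0324), with the replicate number as a block (0.0304) and with array set as a block over 16 arrays (0.0145). Within sets A and B the differences were -0.45 and -0.37 with chlorate, -0.32 and -0.26 with SU5402, and -0.18 and -0.03 in Ndst1/2-/- cells. The chlorate call was also lost in set B alone (adjusted p = 0.057).

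Cdk2, the kinase that cyclin E activates, was higher in each of the other groups. Its brightest probe read 11.51, 11.49 and 11.58 in untreated cultures, 11.85, 11.80 and 11.81 with chlorate, 11.74, 11.76 and 11.70 with SU5402, and 12.18, 12.12 and 12.16 in Ndst1/2-/- cultures. At this probe no 2 of the 4 groups overlapped, in the order Ndst1/2-/-, chlorate, SU5402 and untreated, though SU5402 against chlorate was not called (limma adjusted p = 0.444). At each other Cdk2 probe the SU5402 and chlorate cultures overlapped. At ILMN_2770759 and ILMN_1250942 the SU5402 and untreated cultures overlapped too. The rise was 1.23-fold with chlorate (0.29 ± 0.05, limma adjusted p = 0.000985), 1.16-fold with SU5402 (0.21 ± 0.05, adjusted p = 0.0109) and 1.55-fold in Ndst1/2-/- cells (0.63 ± 0.05, adjusted p = 2.96e-07). The 4 Cdk2 probes were all called in Ndst1/2-/- cells, between 0.59 and 0.66. With each inhibitor 1 of 4 was called, and the 4 differences spanned 0.17 to 0.29 with chlorate and 0.04 to 0.21 with SU5402. Another Cdk2 probe, ILMN_2717613, passed under 11 alternative settings with chlorate and under 7 with SU5402. When arrays were scaled to a common median and not quantile normalised, the brightest probe gave 0.16 with chlorate (adjusted p = 0.172) and 0.11 with SU5402 (adjusted p = 0.387), so neither was called. Within sets A and B the brightest probe differed by 0.30 and 0.25 with chlorate, 0.19 and 0.18 with SU5402, and 0.64 and 0.59 in Ndst1/2-/- cells. Its SU5402 call was lost in set A alone (adjusted p = 0.12) and set B alone (0.193), and its chlorate call in set B alone (0.07). One of the 4 probes, ILMN_2770759, is annotated to another Cdk2 transcript than the rest, and its Ndst1/2-/- difference was 0.62 ± 0.08.

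Cdk6, a kinase partner of the D-type cyclins, was at background. The Cdk6 probe read 48.694 to 59.029 in mean bead intensity over the 12 cultures and was detected on 0 of 16 arrays. Its level was therefore not well above background in any group, and no fold was computed.

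Cdkn1b, which encodes p27, had 1 of 3 probes above background. That probe, ILMN_2638428, was detected on all 4 arrays of each wild-type group and on 0 of 4 Ndst1/2-/- arrays, so it passed the filter through the wild-type groups. Its level was 5.43, 5.13 and 5.35 in untreated cultures, 5.54, 5.87 and 5.53 with chlorate, and 5.55, 5.58 and 5.56 with SU5402. The measured values in Ndst1/2-/- cultures, 5.07, 4.65 and 4.81, lay below all wild-type cultures and were not well above background. The chlorate and SU5402 cultures all lay above the untreated ones. By the measured means, Cdkn1b was 1.14-fold or more lower in Ndst1/2-/- than in untreated cells, a bound set by the dimmest detected probe of each array. The bound takes the untreated mean as it stands and carries no sampling error. Untreated culture 2, at 5.13, lay close to the floor used for the Ndst1/2-/- cultures, 5.11 on average. The test applies to the measured difference and not to the bound, -0.46 ± 0.12 with a limma adjusted p of 0.00421, or 0.00913 with no detection filter. Since the probe passed the filter through the groups in which it is high, this test is not independent of the filter. Chlorate raised it 1.27-fold (0.34 ± 0.12, adjusted p = 0.0472), and SU5402 gave 0.26 (95% interval 0.00 to 0.51, adjusted p = 0.135). The chlorate call is at the threshold and was lost in 14 of 25 alternative settings, among them the fits without untreated culture 2 (adjusted p = 0.169) or without chlorate culture 2 (adjusted p = 0.183). Within sets A and B the chlorate difference was 0.19 and 0.41, and the measured Ndst1/2-/- difference -0.37 and -0.59. In the authors' processed values the latter did not pass the test (adjusted p = 0.0844). The 2 other Cdkn1b probes were detected on 0 of 16 arrays.

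**Figure D2:**
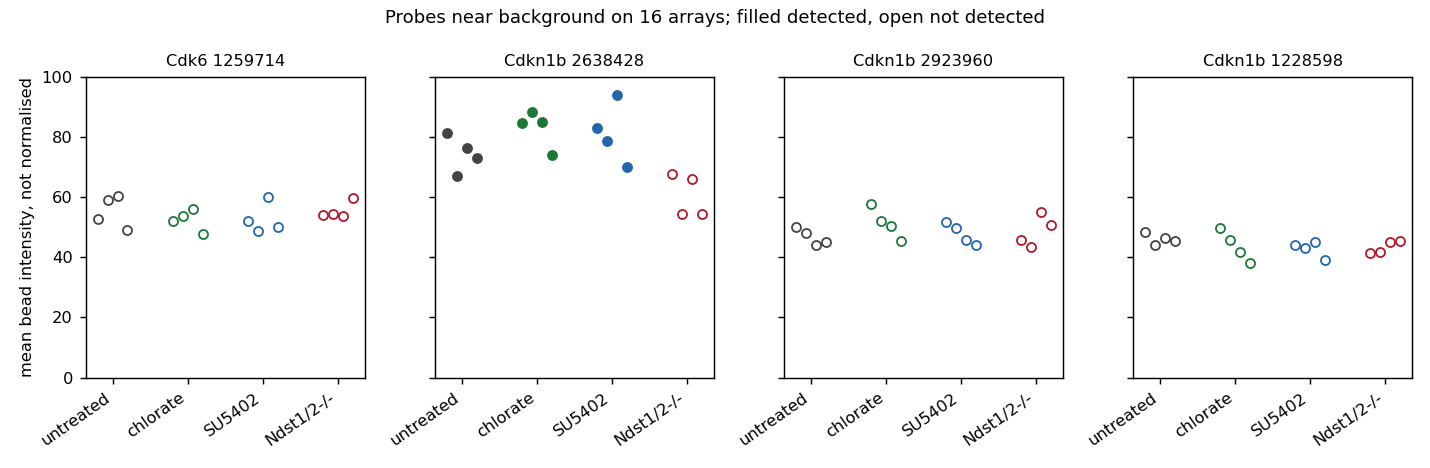
Mean bead intensity, not normalised, of the Cdk6 probe and the 3 Cdkn1b probes on each of 16 arrays. Filled points were detected and open points were not, and only Cdkn1b probe ILMN_2638428 was detected, on all 12 wild-type arrays and on none of the 4 Ndst1/2-/- arrays.

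E2f1, the transcription factor held in check by the retinoblastoma protein, followed Cdk2. It stood at 9.25, 9.26 and 9.25 in untreated cultures, 9.51, 9.44 and 9.47 with chlorate, 9.47, 9.55 and 9.38 with SU5402, and 9.63, 9.78 and 9.67 in Ndst1/2-/- cultures. Untreated cultures were lowest, the inhibitor groups overlapped in the middle, and Ndst1/2-/- cultures were highest. The rise was 1.16-fold with chlorate (0.22 ± 0.06, limma adjusted p = 0.018), 1.16-fold with SU5402 (0.22 ± 0.06, adjusted p = 0.0234) and 1.36-fold in Ndst1/2-/- cells (0.44 ± 0.06, adjusted p = 3.88e-05). Median scaling gave E2f1 differences of 0.13 with chlorate (adjusted p = 0.258) and 0.17 with SU5402 (adjusted p = 0.15), neither of them called. Without chlorate culture 1 the chlorate call was lost (adjusted p = 0.0618). The SU5402 call was lost without any single untreated culture (adjusted p = 0.0578, 0.0533 and 0.0595 without culture 1, 2 and 3) and without SU5402 culture 1 (0.0573) or 2 (0.0929). Within sets A and B the rise was 0.25 and 0.19 with chlorate, 0.19 in both with SU5402, and 0.42 and 0.45 in Ndst1/2-/- cells. In set A and set B alone neither inhibitor call was kept (adjusted p = 0.0553 and 0.226 with chlorate, 0.134 and 0.232 with SU5402).

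**Figure D3:**
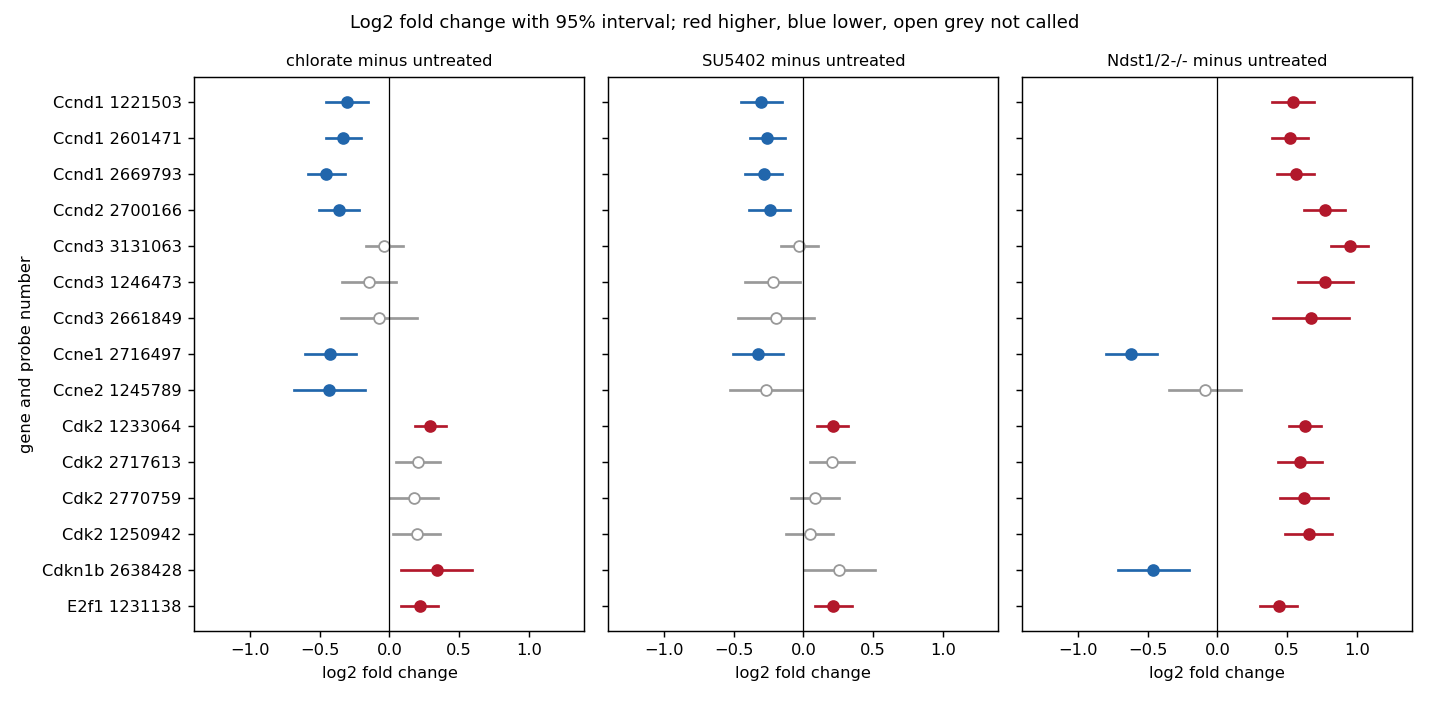
Log2 fold change of the 15 tested probes against untreated cells, with 95% intervals, for chlorate, SU5402 and Ndst1/2-/-. Filled red points were called higher, filled blue points lower, and open grey points were not called. In the Ndst1/2-/- panel 12 probes are called higher and 2 lower, where 30.4% and 32.2% of all probes are. The Cdkn1b probe, 1 of the 2 lower ones, passed the filter through the wild-type groups.

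Counted over probes, chlorate called 9 of 15, with 3 higher and 6 lower, against 28.4% of all probes tested, 14.2% higher and 14.2% lower. SU5402 called 7 of 15, with 2 higher and 5 lower, against 23.5%, 11.9% higher and 11.6% lower. The Ndst1/2-/- comparison called 14 of 15, with 12 higher and 2 lower, where 62.7% of all probes were called, 30.4% higher and 32.2% lower. The Cdkn1b probe, which passed the filter through the wild-type groups, is 1 of the 2 lower ones. The F-test for any difference among the 4 groups called all 15, against 69% of all probes. Probes of 1 gene are not independent. At 1 probe per gene, 7 of 8 genes were called with chlorate (3 higher, 4 lower) and 5 with SU5402 (2 higher, 3 lower). In Ndst1/2-/- cells 7 were called (5 higher, 2 lower). Of all 9107 genes, 1392 were higher and 1344 lower with chlorate, and 1171 higher and 1120 lower with SU5402. In Ndst1/2-/- cells 2776 of them were higher and 3077 lower. The median log2 difference of the 8 genes was -0.17 with chlorate, -0.14 with SU5402 and 0.49 in Ndst1/2-/- cells, and the median size, sign left out, was 0.32, 0.25 and 0.58. Over all 9107 genes the median sizes were 0.14, 0.13 and 0.31. All 3 groups were set against the same untreated cultures, so these comparisons are not independent of each other. The members were chosen with earlier results of these data known, so setting their counts beside those of all probes is a description and not a test.

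With arrays scaled to a common median, chlorate called 7 of 15, 1 higher and 6 lower, and SU5402 called 5, 0 higher and 5 lower, with the higher calls of Cdk2 and E2f1 lost for both inhibitors. The share of all calls with chlorate that were higher moved from 50.1% to 37.7% under this scaling. The Ndst1/2-/- comparison then called 14, 12 higher and 2 lower. Of all probes, 27.2% were called with chlorate, 20.3% with SU5402 and 59.6% in Ndst1/2-/- cells under this scaling. The SU5402 count depended on untreated culture 3, without which 4 probes were called, where 19.2% of all probes were. It also fell to 2 in set A alone and 1 in set B alone, each with 2 arrays a group, and the chlorate count fell to 4 in set B alone. The share of all probes called fell too, to 11.5% and 11.3% with SU5402 in sets A and B, and to 16% with chlorate in set B. With array set as a block over all 16 arrays, counting the 2 arrays of culture 3 separately although they hold 1 culture, the counts were 11 with chlorate, 9 with SU5402 and 14 in Ndst1/2-/- cells. In that fit 34.5%, 29.7% and 66.1% of all probes were called.

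Compared directly, SU5402 and chlorate differed in 0 of 15 probes by limma at an adjusted p under 0.05, where 2.54% of all probes differed, 1.04% higher and 1.5% lower with SU5402, and in 1 at an unadjusted p under 0.05. That probe was ILMN_2669793 of Ccnd1, 0.17 ± 0.06 higher with SU5402 (95% interval 0.04 to 0.30, adjusted p = 0.185). The intervals of the 15 differences lay between -0.39 and 0.42, so differences of that size are not excluded by these cultures. For Ccnd3 the interval was -0.12 to 0.14 and for E2f1 -0.14 to 0.13, whereas for Ccne2 it was -0.09 to 0.42.

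Ndst1/2-/- cells differed from both inhibitor groups in most of these genes. Against chlorate, 14 of 15 probes were called, 13 higher and 1 lower, where 58.3% of all probes were called, 29% higher and 29.3% lower. Against SU5402, 14 of 15 were called, 12 higher and 2 lower, where 57.9% were, 28.4% higher and 29.5% lower. The lower probe against chlorate is the Cdkn1b probe, which passed the filter through the wild-type groups, and those against SU5402 are the Cdkn1b and Ccne1 probes. Among the genes detected in all 4 groups the D-type cyclins differed most, with Ccnd2 at 1.13 ± 0.07 above chlorate (2.19-fold, limma adjusted p = 1.89e-08) and 1.01 ± 0.07 above SU5402 (adjusted p = 5.43e-08). Ccnd3 was 0.99 ± 0.06 and 0.98 ± 0.06 higher, and Ccnd1 0.85 ± 0.07 and 0.84 ± 0.07 higher.

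Cdk2, at its brightest probe, and E2f1 were called higher with each inhibitor, calls that were lost when arrays were scaled to a common median. Both were higher in Ndst1/2-/- cells than in either inhibitor group. The Cdk2 difference was 0.34 ± 0.05 from chlorate (limma adjusted p = 0.000107) and 0.42 ± 0.05 from SU5402 (adjusted p = 1.54e-05). For E2f1 it was 0.22 ± 0.06 (adjusted p = 0.00755) and 0.23 ± 0.06 (adjusted p = 0.0069). The E2f1 call against chlorate was lost in array set A alone (0.17, adjusted p = 0.0866) and that against SU5402 in set B alone (0.25, adjusted p = 0.055). By the measured means, Cdkn1b was 1.44-fold or more lower than with chlorate and 1.37-fold or more lower than with SU5402, bounds without sampling error. The measured differences were -0.80 (limma adjusted p = 7.25e-05, or 0.000213 with no detection filter) and -0.72 (0.000177, or 0.000489), with the same limit as against untreated cells.

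The E-type cyclins differed in part of these comparisons. Ccne1 was lower in Ndst1/2-/- than in SU5402 cultures (-0.29 ± 0.08, limma adjusted p = 0.00907), a call that was lost in array set B alone (-0.15, adjusted p = 0.22) and with the second array of culture 3 only (-0.24, adjusted p = 0.0501). Its difference from chlorate, -0.19 ± 0.08, was not called (95% interval -0.37 to -0.01, adjusted p = 0.0632). The chlorate difference passed without untreated culture 1 or 3 (adjusted p = 0.0295 and 0.0462), with no background correction (0.0366), with an offset of 50 (0.0344), in the authors' processed values (0.0433) and with an intensity trend and robust variance (0.0176). Ccne2 was 0.34 ± 0.12 higher in Ndst1/2-/- than in chlorate cultures (adjusted p = 0.0243). That call was lost without chlorate culture 2 or 3 (adjusted p = 0.0953 and 0.0541) and without Ndst1/2-/- culture 1 or 2 (0.0761 and 0.0739), in the authors' processed values (0.0531), with the second array of culture 3 only (0.0567) and in array set A alone (0.119). Against SU5402 the Ccne2 difference was 0.18 (-0.08 to 0.44, adjusted p = 0.211), and it passed without SU5402 culture 1 (adjusted p = 0.042).

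**Figure D4:**
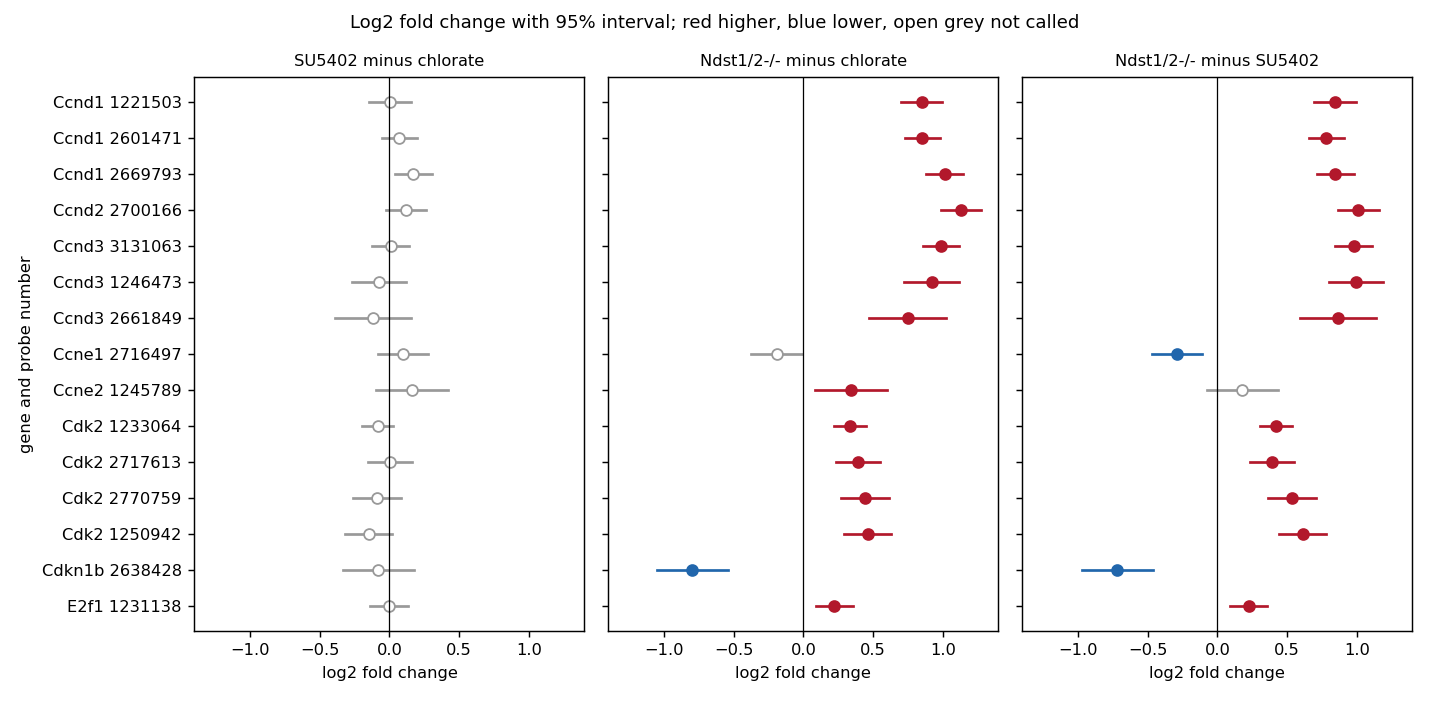
Log2 fold change of the 15 tested probes between the 3 groups other than untreated, with 95% intervals. Colours are as called: red higher, blue lower, open grey not called. No probe is called between SU5402 and chlorate, where 2.54% of all probes are. In each Ndst1/2-/- panel 14 are called, where 58.3% of all probes are against chlorate and 57.9% against SU5402. These include the Cdkn1b probe, which passed the filter through the wild-type groups.

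The other genes of the pathway were read as lists, at the brightest tested probe of each gene. These lists were chosen with earlier results of these data known. Their counts and medians, here and in the paragraphs that follow, are therefore descriptions and not tests. The counts below stand against 28.4% of all probes called with chlorate, 23.5% with SU5402 and 62.7% in Ndst1/2-/- cells, either direction. All 6 of the other CDK inhibitor genes were tested. With chlorate 2 were higher and 0 lower, with SU5402 1 was higher and 1 lower, and in Ndst1/2-/- cells 3 were higher and 2 lower. Cdkn1c, encoding the p27 relative p57, was lower in Ndst1/2-/- cells (log2 difference -2.39 ± 0.06, limma adjusted p = 1.24e-11), and it differed by 0.36 with chlorate and -0.22 with SU5402. Cdkn1a, encoding p21, rose by 0.54 with chlorate and 0.52 with SU5402 and was lower in Ndst1/2-/- cells (-1.06 ± 0.08, adjusted p = 8.82e-08). Among the higher ones in Ndst1/2-/- cells were the CDK4 and CDK6 inhibitors Cdkn2a, by 1.15, and Cdkn2b, by 0.65.

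Of the retinoblastoma and E2F family, 9 of the 11 genes on the array were tested. With chlorate 1 was higher and 5 lower, with SU5402 1 was higher and 4 lower, and in Ndst1/2-/- cells 5 were higher and 3 lower, beside the 28.4%, 23.5% and 62.7% of all probes. Rb1, the retinoblastoma gene itself, rose by 0.49 ± 0.07 with each inhibitor (limma adjusted p = 0.000332 and 0.000458) and was lower in Ndst1/2-/- cells (-0.22, adjusted p = 0.0195). E2f2, an activator E2F like E2f1, went the other way from E2f1 with the inhibitors: it fell by 0.83 with chlorate and 0.71 with SU5402, and was 0.99 ± 0.08 higher in Ndst1/2-/- cells. E2f6, a repressor, fell by 0.41 with chlorate and was lower in Ndst1/2-/- cells (-0.83 ± 0.07), and Rbl1, encoding the pocket protein p107, was higher (0.85 ± 0.09).

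Of the genes that E2F factors are known to drive at S phase entry, 13 of 15 on the array were tested, and in Ndst1/2-/- cells 9 were called higher and 0 lower, at a median of 0.40, where 30.4% of all probes were called higher and the median over all genes was -0.004. With chlorate 1 was higher and 0 lower, and with SU5402 2 were higher and 0 lower, against 14.2% and 11.9% of all probes higher, at medians of 0.07 and 0.08. Rrm2, the small subunit of ribonucleotide reductase, was 1.21 ± 0.06 higher in Ndst1/2-/- cells (limma adjusted p = 5.07e-09), and rose by 0.22 with chlorate and 0.33 with SU5402. Cdt1 and Mcm5, which license replication origins, were 0.66 and 0.59 higher in Ndst1/2-/- cells, and Tk1, thymidine kinase, was 0.62 higher. Cdc6, Mcm4 and Pcna were among the 4 genes that did not pass in any of the 3 comparisons.

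Among regulators of CDK2 and p27, 8 of 9 on the array were tested, and 0 were higher and 2 lower with chlorate, 1 higher and 0 lower with SU5402, and 3 higher and 2 lower in Ndst1/2-/- cells. Of all probes, 28.4%, 23.5% and 62.7% were called. Skp2, the ubiquitin ligase subunit that targets p27 for destruction, was 0.51 ± 0.08 higher in Ndst1/2-/- cells (limma adjusted p = 7.31e-05) and fell by 0.22 with chlorate. Skp1, another subunit of that ligase, was lower in Ndst1/2-/- cells (-0.31, adjusted p = 0.000421) and was the gene that rose with SU5402 (0.21, adjusted p = 0.0195). Fbxw7, the subunit that targets cyclin E, fell by 0.23 with chlorate and differed by -0.45 in Ndst1/2-/- cells. Cdc25a, the phosphatase that activates CDK2, was 0.49 higher in Ndst1/2-/- cells. Only 2 of 4 genes were tested among the S and M phase cyclins and Cdk1. Cdk1 was 0.41 higher in Ndst1/2-/- cells and rose by 0.20 with SU5402, and Ccna2, cyclin A2, was 0.29 higher in Ndst1/2-/- cells.

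Most read-outs of FGF-ERK signalling were lower in all 3 groups. Of 5 tested, 5 were called lower with chlorate, 4 with SU5402 and 4 in Ndst1/2-/- cells, with 0 higher in each, where 14.2%, 11.6% and 32.2% of all probes were called lower. Etv5 was the one not called with SU5402 and in Ndst1/2-/- cells. Etv4, an ETS factor induced by ERK, differed by -3.47, -2.30 and -2.67 on the log2 scale with chlorate, with SU5402 and in Ndst1/2-/- cells, and Dusp6, an ERK phosphatase, by -2.13, -1.33 and -1.33, each called by limma at an adjusted p of 2.96e-07 or less. Ccnd1, Ccnd2 and Ccnd3 were higher in Ndst1/2-/- cells, in which 4 of these 5 read-outs were lower. A link between the read-outs and the cyclins was not tested.

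**Figure D5:**
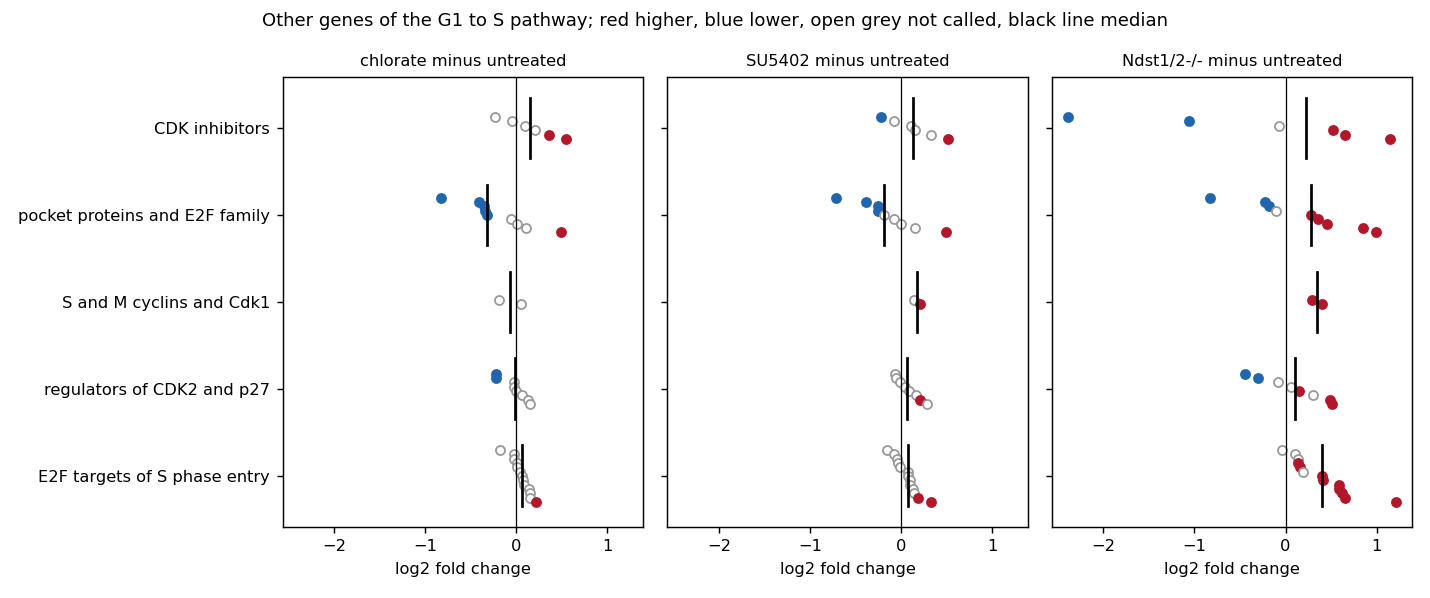
Log2 fold change against untreated cells of the other genes of the pathway, one point per gene, in 5 lists and 3 comparisons. Red points were called higher, blue lower, open grey not called, and black lines are list medians. The E2F target list has its median at 0.40 in Ndst1/2-/- cells and at 0.07 and 0.08 with chlorate and SU5402.

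The genes whose course over the 12 cultures was most like a member's were found by Pearson correlation of normalised log2 values, as a description without a test. The points share normalisation and the 4 groups, so the values mostly reflect group differences. Ccnd3, the member with the smallest F-test p, was closest to Zfhx2 (r = 0.997), Tgfbi (0.995) and Pou6f1 (0.993). Over the 9 wild-type cultures alone Zfhx2 was again closest, at 0.960. For the others the closest gene over 12 cultures was Klf5 for Ccnd1 (0.986), 1190005I06Rik for Ccnd2 (0.991), Rhebl1 for Ccne1 (0.969) and Brix1 for Ccne2 (0.948). It was Pdpn for Cdk2 (0.996), Tmem144 for Cdkn1b (0.972) and Acaa1a for E2f1 (0.983). In the 9 wild-type cultures the closest gene was a different one for each of these 7 members.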

How the data were processed

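The deposited mean bead intensity of each probe on 16 arrays, not normalised per the file headers, and its deposited detection p-value were the starting point. The submitters' processing notes name BeadStudio; no version of it is given in these sources. A deposited table of processed intensity, whose normalisation is not given per the file headers, served only as an alternative.

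The neqc function of limma 3.58.1 (R 4.3.3) was run on them: normal-exponential background correction informed by detection p-values, addition of an offset of 16, quantile normalisation and log2. The 2 arrays of culture 3 were averaged, giving 12 cultures, 3 per group, as the labels number them. Testing was limited to probes with an averaged detection p-value below 0.01 in 3 or more cultures. A single limma model of the 4 groups (8 residual degrees of freedom) gave 6 comparisons and an F-test, adjusted by Benjamini-Hochberg over 13377 probes and called under 0.05. The model was also run on simulated data with independent noise and changes in 1 group, in far fewer probes than were called here. That run did not include array sets or normalisation and so cannot speak to them. Quantile normalisation gives all arrays 1 distribution, so a change in total RNA per cell is not seen.

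On the log2 scale, the SD between arrays of 1 culture was 0.125 to 0.135 and between cultures of a group 0.120 to 0.144. These ranges overlap, so the p-values may rest largely on spread between arrays. The arrays of culture 3 lie in different sets, A and B, so their spread includes any difference between the sets. The part of the sets in it was not separated. The number of arrays limits the precision. The gene named is that of the platform annotation, and the gene identifiers of all 18 probes were in the RefSeq table. Genes with several probes are represented by the tested probe with the highest mean level, and in each pathway list up to 4 called genes of largest change against untreated cells in any group and up to 3 not called are named. The members and the lists were chosen with earlier results of these data known.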

Additional observations from a re-analysis of the deposited data

How the results depend on the processing

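The 90 comparisons of member probes were recomputed under up to 26 alternatives, giving 2334 values. Of these, 2243 stayed on the same side of the threshold, 60 lost the call, 31 gained one and 0 values called in either setting turned direction. Of the values called in neither, 39 changed sign. Some alternatives leave the log2 difference as it was, such as the fits without a culture of a group not compared and those with no detection filter. Their values could not turn direction, so the totals overstate how far direction was put to the test. Leaving out 1 culture at a time, the number of called member probes ranged from 7 to 10 with chlorate, 4 to 8 with SU5402 and 14 to 14 in Ndst1/2-/- cells against untreated cells, 0 to 0 between SU5402 and chlorate, 13 to 15 and 14 to 15 for Ndst1/2-/- against chlorate and SU5402, and 14 to 15 in the F-test. Against untreated cells, these fits called 23.2% to 28.5% of all probes with chlorate, 18.4% to 23.8% with SU5402 and 58.2% to 63.1% in Ndst1/2-/- cells. Between SU5402 and chlorate they called 1.19% to 2.66% of all probes. For Ndst1/2-/- they called 53.8% to 58.9% against chlorate and 53.4% to 58.5% against SU5402. The F-test share of all probes, 69%, was computed in the main fit only. Array set B alone called 4 with chlorate and 1 with SU5402, and set A alone called 2 with SU5402, each with fewer arrays in the fit. The shares of all probes in these 3 cases were 16%, 11.3% and 11.5%.

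The cultures were not treated as paired by replicate number, since correlations of same-numbered deviations, -0.0094 to 0.19, were not all above 0.1. Differently numbered ones were at -0.17 to 0.118. Cultures 1 and 2 lie in array sets A and B, so the number tracks the array set. With the replicate number as a block the counts were 9 with chlorate, 8 with SU5402 and 14 in Ndst1/2-/- cells. Of all probes, 29.4%, 24.9% and 63.6% were called in that fit. Under this replicate block Cdkn1b with chlorate lost its call (adjusted p = 0.0605), and Ccne2 with SU5402 (0.0304) and Cdk2 probe ILMN_2717613 with chlorate (0.0493) gained one. Median scaling moved the share of calls that were higher from 50.1% to 37.7% with chlorate and from 49.8% to 60% for Ndst1/2-/- against chlorate. With no detection filter, 14% of 25697 probes were called with chlorate, 11.4% with SU5402 and 34% in Ndst1/2-/- cells. Dim probes limit what can be said of Cdkn1b, Cdk6 and Ccne2.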
